A study of Homo sapiens with 2 samples.

Results

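A set of 10 genes of drug oxidation, reduction and epoxide hydrolysis were followed in MTAC-P, a lung cancer cell line that resists EGFR tyrosine kinase inhibitors, and in PC9, the line it was derived from. The members are AOX1, EPHX1, EPHX2, CYP1A1, CYP1B1, CYP24A1, POR, CBR1, CBR3 and DCXR, out of 30843 symbols in the transcript tables. Rows were taken by symbol, and the symbols were chosen by gene function with their FPKM values and log2 ratios in these libraries known, so their differences are a description and carry no test. Together they had 26 of the 65535 transcripts listed. MTAC-P and PC9 each had 1 RNA-seq library of total RNA from cells grown in the same serum-containing medium, and the labels give no inhibitor treatment at harvest. PC9 is a lung adenocarcinoma line with an activating EGFR deletion. How MTAC-P was selected, and whether it is a clone, is not stated in the labels. The design text mentions triplicates, yet only 1 value per transcript and line is held here, so the differences come with no error and no p-value.

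These enzymes carry out the first step of drug and toxin handling, in which a reactive group is put on a molecule or uncovered. Cytochrome P450s do so with haem, and the microsomal ones with electrons passed on by the P450 reductase POR. Aldehyde oxidase needs a molybdenum cofactor instead, epoxide hydrolases open epoxides with water, and carbonyl reductases turn ketones and quinones into alcohols and hydroquinones. The liver is the main site, but lung epithelium and lung tumours express some of them, and CYP1A1 is known to metabolise the EGFR inhibitor erlotinib.

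Values are FPKM (fragments normalised to transcript length and library size), summed over the listed transcripts of a symbol. The log2 ratio is log2((MTAC-P + 1)/(PC9 + 1)), and 2-fold means a log2 ratio of at least 1 in size. A gene was compared if its mean over both libraries was at least 1 FPKM. The listed values summed to 685082 in MTAC-P and 693444 in PC9, with read numbers unknown, and mitochondrial transcripts made up 20.3% in MTAC-P and 23.5% in PC9. Epithelial markers were abundant in both lines, with 3871 FPKM over 6 markers in MTAC-P and 3659.6 in PC9. Of 7 leukocyte markers only CD68 reached a mean of 1 FPKM, and of 9 fibroblast and endothelial markers only COL1A1 and CDH5 did. The 6 hepatocyte markers summed to 0.254 FPKM in MTAC-P and 0.341 in PC9.

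Upstream sequences of the members for which the data bear on a start site are shown first. They are RefSeq sequences (GRCh38.p14) from 250 bases before the RefSeq start onwards. Each ends at the start of the complete listed transcript of the highest value that starts near it. RefSeq promoter sequences were matched for AOX1, EPHX1, CYP1A1, CBR1 and DCXR, while EPHX2, CYP1B1, CYP24A1, POR and CBR3 are named only. Capitals mark the core of the xenobiotic response element (GCGTG, either strand), to which the aryl hydrocarbon receptor binds, the core of the antioxidant response element (TGACNNNGC, either strand), to which NRF2 binds, and the TATA box (TATAAA, the gene's strand). EPHX1 is shown at both start sites because its 2 listed transcripts differ in them.
AOX1, chr2:200585764-200585867, plus strand: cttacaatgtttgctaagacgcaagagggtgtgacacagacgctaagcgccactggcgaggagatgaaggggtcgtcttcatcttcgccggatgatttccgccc
EPHX1 upstream start, chr1:225809874-225810094, plus strand: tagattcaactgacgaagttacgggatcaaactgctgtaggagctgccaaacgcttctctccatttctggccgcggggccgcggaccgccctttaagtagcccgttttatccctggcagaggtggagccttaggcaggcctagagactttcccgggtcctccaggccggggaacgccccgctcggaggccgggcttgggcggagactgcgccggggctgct
EPHX1 downstream start, chr1:225825104-225825353, plus strand: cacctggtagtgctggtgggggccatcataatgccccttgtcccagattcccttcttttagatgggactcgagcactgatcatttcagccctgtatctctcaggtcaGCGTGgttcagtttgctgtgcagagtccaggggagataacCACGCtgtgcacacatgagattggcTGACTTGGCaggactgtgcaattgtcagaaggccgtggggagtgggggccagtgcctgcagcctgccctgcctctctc
DCXR, chr17:82037733-82037947, minus strand: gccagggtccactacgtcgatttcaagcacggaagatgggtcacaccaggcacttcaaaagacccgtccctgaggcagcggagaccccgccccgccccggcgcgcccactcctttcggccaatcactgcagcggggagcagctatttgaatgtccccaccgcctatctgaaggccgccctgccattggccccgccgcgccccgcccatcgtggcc
CYP1A1, chr15:74725537-74725778, minus strand: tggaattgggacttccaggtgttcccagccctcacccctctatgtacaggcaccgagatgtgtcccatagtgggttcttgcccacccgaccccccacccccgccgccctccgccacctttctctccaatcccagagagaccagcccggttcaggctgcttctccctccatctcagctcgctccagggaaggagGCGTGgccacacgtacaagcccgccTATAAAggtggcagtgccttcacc
CBR1, chr21:36069774-36069940, plus strand: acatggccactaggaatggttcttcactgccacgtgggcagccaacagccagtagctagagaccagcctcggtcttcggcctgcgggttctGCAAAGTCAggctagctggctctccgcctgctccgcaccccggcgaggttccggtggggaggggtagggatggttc

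Over all 34943 RefSeq promoter windows of 250 bases, 32.2% held the xenobiotic core, 10.9% the antioxidant core and 6.82% the TATA box. The windows of AOX1, of DCXR and of the upstream EPHX1 start held none of these letters. The downstream EPHX1 start held the xenobiotic core at 143 and 103 bases before the start and the antioxidant core at 78 bases. CYP1A1 held a xenobiotic core at 57 bases and a TATA box at 32 bases before the start. CBR1 held an antioxidant core at 159 bases and a xenobiotic core at 34 bases, the last within the transcribed part that is not printed. A match is a description of letters, and binding was not measured.

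Of the 10 genes, 7 were compared. AOX1 was at least 2-fold higher in MTAC-P, EPHX1, POR and DCXR were at least 2-fold lower, and CYP1B1, CBR1 and CBR3 lay within 2-fold. Among all 11435 genes compared, 7.77% reached 2-fold: 3.48% were higher in MTAC-P, and lower ones made up 4.29%. Because the genes were chosen with these ratios known, nothing is read from the difference between the shares. EPHX2, CYP1A1 and CYP24A1 stayed under a mean of 1 FPKM and are given as levels. In bulk RNA, fewer cells that express a gene and less RNA per cell cannot be told apart.

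**Figure D1:**
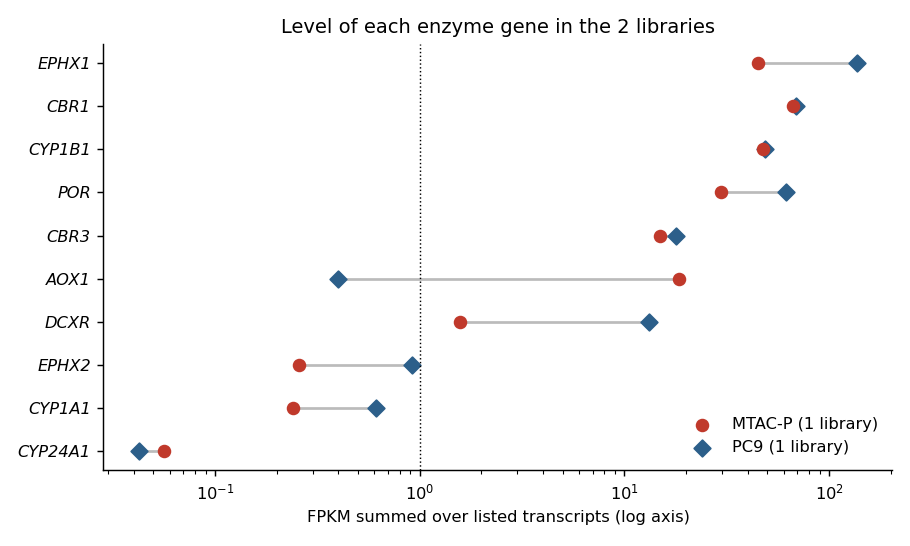
FPKM of each of the 10 enzyme genes in MTAC-P (circles) and PC9 (diamonds), 1 library each, on a log axis, with a dotted line at 1 FPKM. AOX1 is the gene that stands far higher in MTAC-P, at 18.6 FPKM against 0.401 in PC9, while the points of CBR1 and of CYP1B1 lie almost on each other.

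By level, EPHX1 was the most abundant of the 10 in PC9, where it ranked 565 among all symbols, against rank 1703 in MTAC-P. In MTAC-P the order was CBR1, CYP1B1, EPHX1, POR, AOX1, CBR3 and DCXR, with EPHX2, CYP1A1 and CYP24A1 below 1 FPKM. In PC9 it was EPHX1, CBR1, POR, CYP1B1, CBR3 and DCXR, with EPHX2, CYP1A1, AOX1 and CYP24A1 below 1 FPKM. Without replicates, which neighbours in these orders differ could not be told. The places of POR in both lines and of AOX1 in MTAC-P rest mostly on short, incomplete transcript models, described below. In MTAC-P the complete models POR-201 and AOX1-202 stood at 2.44 and 3.29 FPKM, below CBR3 at 14.9.

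AOX1 encodes aldehyde oxidase, a cytosolic molybdenum enzyme that oxidises aldehydes and nitrogen-containing rings of many drugs (ENSG00000138356, chromosome 2, 200585868 to 200677064, plus strand). It stood at 18.6 FPKM in MTAC-P, against 0.401 in PC9, a log2 ratio of 3.80. This was the ninth highest ratio of the genes compared. Both listed transcripts pointed the same way. The complete model AOX1-202, with 35 exons and 5074 nt, stood at 3.29 FPKM in MTAC-P and 0.401 in PC9, a log2 ratio of 1.61. The model AOX1-201 stood at 15.3 FPKM in MTAC-P and was listed at 0 in PC9.

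AOX1-201 is an incomplete model of 580 nt in 7 exons (chromosome 2, 200660037 to 200670650) whose start and end are marked as not found in GENCODE 29. All of its 580 bases lie in exons 29 to 35 of AOX1-202, so it has no base of its own. It carried 82.3% of the summed AOX1 value in MTAC-P. The log2 ratio of AOX1 was 1.61 without incomplete models, against 3.80 with both, and how fragments were shared between the models was not tested. With both, it was 5.22 with a pseudocount of 0.1 and 2.13 with 5. Each FPKM was also multiplied by its transcript's full length. That gives an amount only roughly in proportion to fragments, since any length correction by the tool is not undone. It put AOX1 at 25.6 FPKM times kb in MTAC-P and 2.04 in PC9, 12.6 times higher. On that scale AOX1-202 held 65.3% of the MTAC-P amount. The 3 nearest compared coding genes on each side all lay within 2-fold, from SPATS2L at -0.37 to PPIL3 at 0.73.

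**Figure D2:**
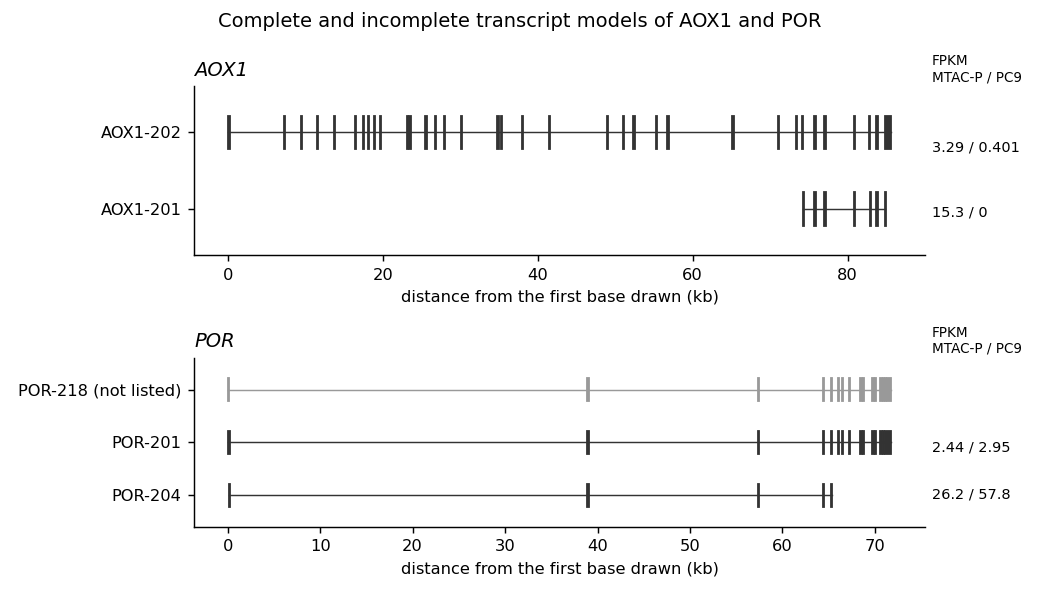
Exons (blocks) of AOX1 and POR transcript models against distance in kb from the first base drawn, with FPKM in MTAC-P and PC9 beside each listed model. Blocks narrower than 0.15 kb are drawn at 0.15 kb. AOX1-201, at 15.3 FPKM in MTAC-P, covers only the last exons of AOX1-202. POR-204 overlaps only exons 2 to 5 of POR-218 and of POR-201.

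The other molybdenum enzymes and makers of their cofactor that were compared gave no 2-fold difference, which 7.77% of all genes compared showed. Of 11 symbols in this list 7 were in the tables and 6 were compared, with a median log2 ratio of 0.21. MOCS3, an enzyme of cofactor synthesis, stood at 9.99 FPKM in MTAC-P and 8.17 in PC9. MOCS1, also of cofactor synthesis, was not compared, at 0.0139 FPKM in MTAC-P and 0 in PC9. MOCOS, which adds the sulfur that aldehyde oxidase needs, stood at 7.33 in MTAC-P and 5.68 in PC9. The range ran from -0.23 for sulfite oxidase SUOX to 0.83 for MOCS2. XDH, the xanthine dehydrogenase related to AOX1, stood at 2.12 FPKM in MTAC-P and 1.80 in PC9.

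Of the P450s among the members, CYP1B1 was the abundant one, and its level was nearly equal in both lines. It oxidises polycyclic hydrocarbons and oestrogens and is a target of the aryl hydrocarbon receptor (ENSG00000138061, chromosome 2, 38066973 to 38109902, minus strand). CYP1B1 stood at 47.5 FPKM in MTAC-P and 48.6 in PC9, a log2 ratio of -0.03. The whole value came from 1 transcript ID, and neither of its 2 listed IDs is in GENCODE 29, so no transcript length is given. None of the 4 coding transcripts of CYP1B1 in GENCODE 29 is listed, so whether the value covers the gene's total cannot be told. CYP1B1-AS1, on the opposite strand, stood at 0.692 FPKM in MTAC-P and 0.939 in PC9. CYP1A1, a related P450 with the same regulator (ENSG00000140465, chromosome 15, 74719542 to 74725610, minus strand), stood at 0.241 FPKM in MTAC-P and 0.610 in PC9. Its log2 ratio of -0.38 is muted by the pseudocount, since the PC9 value was 2.53 times the MTAC-P value. Of its 3 listed transcripts 2 were above 0, CYP1A1-201 at 0.0997 in MTAC-P and 0.219 in PC9, and CYP1A1-202 at 0.142 in MTAC-P and 0.391 in PC9. Those models share 2608 bases, so their split is uncertain.

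CYP24A1, the mitochondrial P450 that inactivates vitamin D hormone (ENSG00000019186, chromosome 20, 54153449 to 54173973, minus strand), was close to 0 in both lines. It stood at 0.0565 FPKM in MTAC-P and 0.0427 in PC9. At that level no direction is read. The vitamin D receptor VDR, whose activation is known to induce CYP24A1, stood at 13.1 FPKM in MTAC-P and 10.3 in PC9. Its partner RXRA stood at 12.7 FPKM in MTAC-P and 19.8 in PC9. CYP27B1, which makes the hormone, was at 0.0456 FPKM in MTAC-P and 0.198 in PC9. Of the 10 genes of vitamin D handling, 3 were compared and none reached 2-fold, as 7.77% of all genes compared did.

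The aryl hydrocarbon receptor pathway, which controls CYP1A1 and CYP1B1, held no gene at 2-fold among 9 compared, where 7.77% of all genes compared reached it. The median log2 ratio was -0.05. The receptor AHR stood at 16.1 FPKM in MTAC-P and 19.9 in PC9. Its partner ARNT stood at 9.08 FPKM in MTAC-P and 5.40 in PC9. The target NQO1 stood at 192 FPKM in MTAC-P and 309 in PC9, a log2 ratio of -0.68, while the target TIPARP stood at 6.06 in MTAC-P and 3.90 in PC9, a log2 ratio of 0.53. UGT1A6, of the same list, stood at 149 FPKM in MTAC-P and 246 in PC9, a log2 ratio of -0.72. AHRR was not compared, at 0.461 FPKM in MTAC-P and 0.566 in PC9. The abundant chaperones of the receptor complex, HSP90AB1 (0.16) and PTGES3 (0.08), were near 0 on the log2 ratio scale.

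Among the 45 other P450s, 10 were compared and 13 were listed at 0 in both lines. Of the 10 compared, 1 reached 2-fold, beside 7.77% of all genes compared. CYP4F3, a leukotriene hydroxylase with close copies in its gene family, was the 1 at 2-fold, with 1.52 FPKM in MTAC-P and 6.13 in PC9 (log2 ratio -1.50). CYP4F11, of the same family, stood at 27.5 FPKM in MTAC-P and 54.3 in PC9, a log2 ratio of -0.96. CYP51A1, the sterol demethylase, stood at 38.4 FPKM in MTAC-P and 40.7 in PC9. The main drug-metabolising P450 of liver, CYP3A4, stood at 0.0399 FPKM in MTAC-P and 0.0184 in PC9.

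POR encodes the reductase that passes electrons from NADPH to microsomal P450s (ENSG00000127948, chromosome 7, 75899200 to 75986855, plus strand). It stood at 29.5 FPKM in MTAC-P and 62.0 in PC9, a log2 ratio of -1.04. The difference came from 1 short model. POR-204, with 5 exons, 548 nt and its end marked as not found, overlaps exons 2 to 5 of the model POR-201. POR-204 stood at 26.2 FPKM in MTAC-P and 57.8 in PC9. It held 88.5% of the POR value in MTAC-P and 93.2% in PC9.

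The longest listed model, POR-201, with 15 exons, 2532 nt and 1899 coding nt, stood at 2.44 FPKM in MTAC-P and 2.95 in PC9, a log2 ratio of -0.20. The principal transcript of POR, POR-218 with 16 exons and 2040 coding nt, is not among the transcripts analysed here, and 520 of the 548 bases of POR-204 lie in its exons. Without incomplete models the log2 ratio of POR was -0.11, weighted by transcript length it was -0.86, and with a pseudocount of 5 it was -0.96. POR lost the 2-fold call in these 3 alternatives and kept it in the other 7 that gave it a value. The other 7 listed POR transcripts were each under 1 FPKM in both lines. SNORA14A, a small nucleolar RNA gene inside the span of POR, was listed at 0 in MTAC-P and at 3.57 FPKM in PC9. TMEM120A, which overlaps POR on the opposite strand, stood at 0.146 FPKM in MTAC-P and 0.285 in PC9.

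The partners that pass electrons to P450s beside POR gave 1 gene at 2-fold among 10 compared, beside 7.77% of all genes compared. Their median log2 ratio was 0.09. CYB5R2, a cytochrome b5 reductase, stood at 6.27 FPKM in MTAC-P and 1.47 in PC9 (log2 ratio 1.56). The related CYB5R3 stood at 26.7 FPKM in MTAC-P and 39.4 in PC9. Cytochrome b5 itself, CYB5A, stood at 134 FPKM in MTAC-P and 157 in PC9, and the haem-binding PGRMC1 at 127 in MTAC-P and 128 in PC9.

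**Figure D3:**
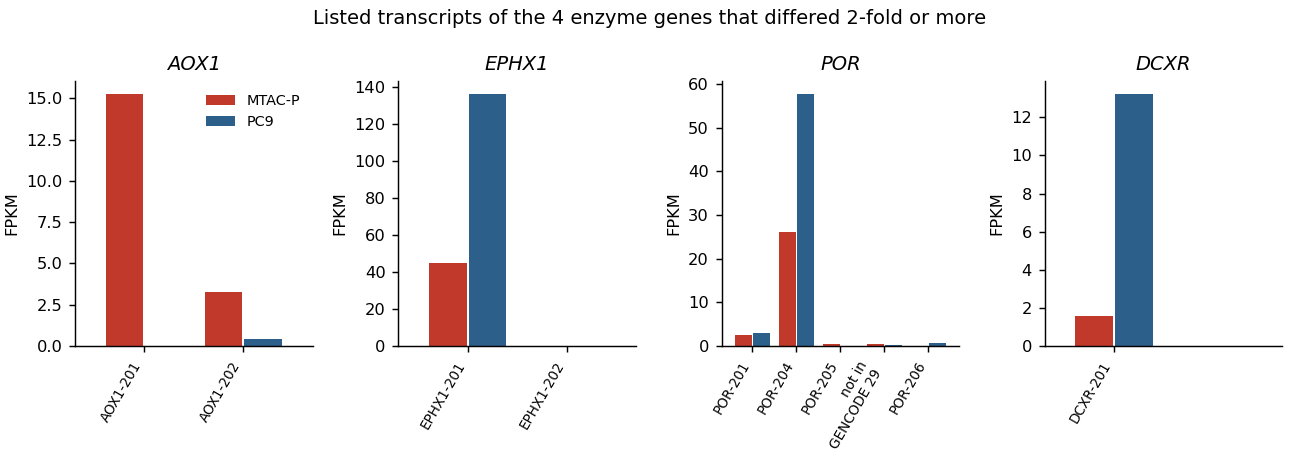
FPKM of the listed transcripts of AOX1, EPHX1, POR and DCXR in MTAC-P (left bar of each pair) and PC9 (right bar), 1 library each, with POR transcripts shown from 0.3 FPKM in either line. In MTAC-P a single transcript carries most of the summed value of each of AOX1, EPHX1 and POR, and DCXR has only 1 listed.

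EPHX1 encodes microsomal epoxide hydrolase, which detoxifies epoxides formed by P450s and is also a known NRF2 target (ENSG00000143819, chromosome 1, 225810092 to 225845563, plus strand). It stood at 44.9 FPKM in MTAC-P and 136 in PC9, a log2 ratio of -1.58, the PC9 value being 3.04 times that of MTAC-P. The value was assigned almost wholly to EPHX1-201, which begins at the upstream start shown above and stood at 44.8 FPKM in MTAC-P and 136 in PC9. EPHX1-202, from the downstream start 15259 bases away, stood at 0.122 FPKM in MTAC-P and 0.0475 in PC9. Both models encode 455 codons, and 95.5% of the bases of EPHX1-201 lie in exons of EPHX1-202. The split between them is uncertain for that reason, and EPHX1-206, another principal model that starts at 225810412, is not among the transcripts analysed here.

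EPHX1 kept its side of 2-fold under every pseudocount, scaling and choice of transcripts run, with log2 ratios from -1.62 to -1.50. Of its neighbours on chromosome 1, SRP9 had a log2 ratio of -0.03, ENAH 0.10, LBR 0.04, SDE2 0.34 and H3F3A -0.08. TMEM63A, on the opposite strand, shares 24 bases with EPHX1-201 and stood at 19.3 FPKM in MTAC-P and 23.3 in PC9.

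EPHX2, the soluble epoxide hydrolase that degrades epoxides of arachidonic acid (ENSG00000120915, chromosome 8, 27490779 to 27545564, plus strand), stood at 0.258 FPKM in MTAC-P and 0.921 in PC9. It has 1 listed transcript out of 7 coding transcripts in GENCODE 29, and its principal one is not among those analysed here. The log2 ratio was -0.61 with the pseudocount of 1 and -1.51 with a pseudocount of 0.1. Of the 10 other epoxide and ester hydrolases 6 were compared, with 1 higher and 1 lower by 2-fold. Over all genes compared, 3.48% were higher and 4.29% lower by it. EPHX4, a related hydrolase of little-known function, stood at 5.81 FPKM in MTAC-P and 2.01 in PC9 (log2 ratio 1.18), opposite in sign to EPHX1. PON2, a lactonase, stood at 6.22 FPKM in MTAC-P and 18.4 in PC9 (log2 ratio -1.43).

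The carbonyl reductases CBR1 and CBR3 lie 61746 bases apart on chromosome 21 and were within 2-fold. CBR1, which reduces anthracyclines, quinones and prostaglandins (ENSG00000159228, 36069941 to 36073166, plus strand), stood at 66.6 FPKM in MTAC-P and 69.3 in PC9, a log2 ratio of -0.06. CBR3, its close relative (ENSG00000159231, 36134912 to 36146566, plus strand), stood at 14.9 FPKM in MTAC-P and 17.9 in PC9, a log2 ratio of -0.25. CBR1 was thus the higher of the pair in each library. Both encode 277 codons in 3 exons, and the complete 3-exon transcripts listed carried all of the values. The counting is not stated to use strand. Of the CBR3 transcript, 493 of 1169 bases lie opposite exons of CBR3-AS1, which stood at 0.110 FPKM in MTAC-P and 0.427 in PC9. Of the CBR1 transcript with the value, 464 of 1293 bases lie opposite exons of AP000688.1, which has no value because its symbol is not listed. SETD4, whose span overlaps CBR1 on the opposite strand, stood at 9.91 FPKM in MTAC-P and 9.75 in PC9.

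DCXR encodes L-xylulose reductase, a member of the short-chain reductases that reduces dicarbonyls and sugars (ENSG00000169738, chromosome 17, 82035136 to 82037732, minus strand). It stood at 1.58 FPKM in MTAC-P and 13.2 in PC9, a log2 ratio of -2.46, with the PC9 value 8.38 times that of MTAC-P. It was rank 41 from the lowest ratio of all genes compared. Its 1 listed transcript, DCXR-201, is the complete principal model with 8 exons and 887 nt, 1 of 7 coding transcripts in GENCODE 29. The other 6 were not analysed here, so a shift between transcripts of DCXR cannot be told apart from a lower total. With a pseudocount of 5 the log2 ratio was -1.47, and with 0.1 it was -2.99.

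The genes around DCXR are tightly packed, and none of the 6 nearest compared reached 2-fold. RAC3, 932 bases away, stood at 10.7 FPKM in MTAC-P and 7.40 in PC9, a log2 ratio of 0.48. LRRC45 had a log2 ratio of -0.69, DUS1L -0.66, RFNG -0.33, GPS1 -0.09 and ASPSCR1 0.24. Over all members, 55 different flanking coding genes were compared, with a median log2 ratio of 0.01. Overlapping genes such as SNORA14A were not included, except SETD4, which overlaps CBR1 but flanks CBR3. None of the 55 was higher by 2-fold and 3 were lower by it, beside 3.48% and 4.29% of all genes compared. The 3 lower flanking genes were SCARA3 near EPHX2 (-1.67), GALM near CYP1B1 (-1.25) and CCL26 near POR (-1.17).

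**Figure D4:**
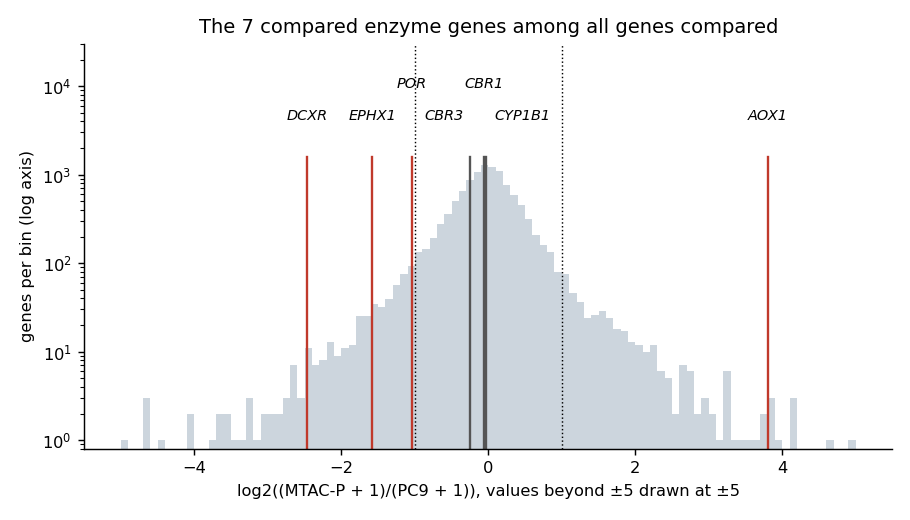
Histogram of the log2 ratio of the 11435 genes compared (bins along x, genes per bin on a log axis), with vertical lines at the 7 compared enzyme genes and dotted lines at 2-fold. AOX1 at 3.80 and DCXR at -2.46 lie in the thin tails, and CYP1B1, CBR1 and CBR3 in the peak.

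A wider list of pentose and glucuronate genes beside DCXR had 9 members compared and none at 2-fold, which 7.77% of all genes compared reached. Its median log2 ratio was -0.09. The pentose phosphate enzymes TKT, at 195 FPKM in MTAC-P and 213 in PC9, and TALDO1, at 149.5 in MTAC-P and 149.6 in PC9, were the most abundant.

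Other carbonyl and quinone reductases had more members below than above 0. A log2 ratio above 0 was seen in 10 of the 30 compared, and 3 reached 2-fold, each lower in MTAC-P. Over all genes compared 47.6% lay above 0 and 4.29% were lower by 2-fold. The median log2 ratio was -0.27, beside -0.02 over all genes compared. The quinone reductase NQO2 stood at 28.97 FPKM in MTAC-P and 62.77 in PC9 (log2 ratio -1.09). The biliverdin reductase BLVRA stood at 17.4 FPKM in MTAC-P and 36.4 in PC9 (log2 ratio -1.02). HSD17B14, a steroid dehydrogenase, stood at 0.485 FPKM in MTAC-P and 2.09 in PC9 (log2 ratio -1.06). The known NRF2 target NQO1, which this list and the receptor list share, is given above.

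Enzymes that conjugate the products of the first step gave 4 genes at least 2-fold lower and none higher among 11 compared, with a median log2 ratio of -0.38, where 4.29% of all genes compared were lower by 2-fold and 3.48% higher. The sulfotransferase SULT1A1 stood at 6.67 FPKM in MTAC-P and 19.0 in PC9 (log2 ratio -1.38). SULT1A2, nearly identical in sequence, stood at 3.36 FPKM in MTAC-P and 11.5 in PC9 (log2 ratio -1.52), so their separate values are uncertain. The glucuronosyltransferases UGT1A1 (-1.05) and UGT1A7 (-1.34) share their last exons with the other UGT1A genes, and their separate values are uncertain for the same reason. The 4 lower genes thus come from these SULT1A and UGT1A groups, whose other compared genes were within 2-fold. SULT1A3 stood at 10.8 FPKM in MTAC-P and 7.05 in PC9 (log2 ratio 0.55), the other way. UGT1A6, the most abundant, stood at 149 FPKM in MTAC-P and 246 in PC9 (log2 ratio -0.72).

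Of the 9 xenobiotic receptors and regulators 4 were compared and none reached 2-fold, as 7.77% of all genes compared did. PPARG stood at 37.6 FPKM in MTAC-P and 55.9 in PC9. NFE2L2, which encodes NRF2, stood at 36.5 FPKM in MTAC-P and 26.9 in PC9, a log2 ratio of 0.43, while its inhibitor KEAP1 stood at 20.9 in MTAC-P and 27.0 in PC9 (-0.36). The pregnane X receptor NR1I2 and the androstane receptor NR1I3 were listed at 0 in both lines. None of the 7 flavin monooxygenases and monoamine oxidases reached a mean of 1 FPKM, and MAOA was the most abundant, at 1.06 FPKM in MTAC-P and 0.416 in PC9.

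**Figure D5:**
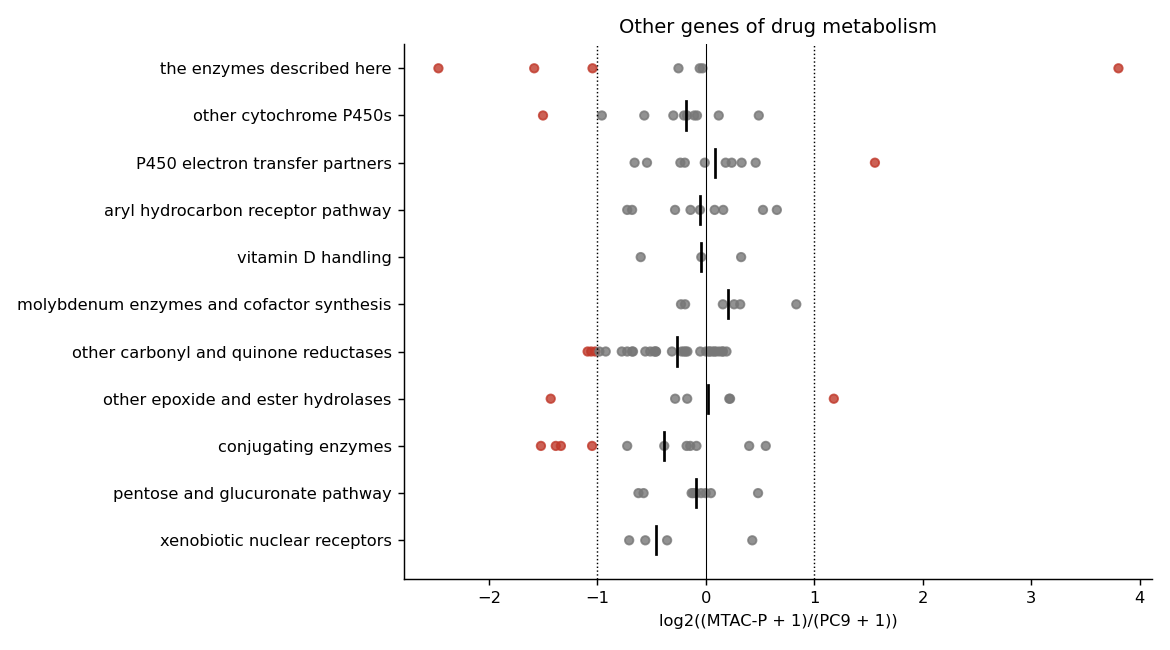
Log2 ratio of each compared gene (points, dark red at 2-fold or more) in the 10 lists of other drug metabolism genes that had a gene compared, with the list median as a black bar, below a row for the 7 compared enzyme genes without a median. Points at 2-fold on the lower side outnumber those on the higher side.

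Over the 11 lists, 96 of 179 symbols, some of them an old and a new name of the same gene, were compared, and 2 (2.08%) reached 2-fold as higher in MTAC-P and 9 (9.38%) as lower, beside 3.48% and 4.29% of all genes compared. Their median log2 ratio was -0.16, and 34 lay above 0, where 47.6% of all genes compared did. With a pseudocount of 5 none of the 96 was higher and 2 were lower by 2-fold, 2.08% beside 2.48% of all genes, and at 4-fold none was called, beside 1.52%. The lists were drawn up with earlier results of these libraries known, so the shares describe these libraries only.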

How the data were processed

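Each line had 1 library of total RNA, processed with Trim Galore, TopHat and Cufflinks on hg38, per the submitters' processing notes. Neither the labels nor the notes state versions, the annotation release or strandedness. The deposited values, 1 for each transcript, are read as FPKM, the usual output of Cufflinks, since no header names a unit. There are no counts or intervals, so depth and precision are unknown, and an exact 0 can be a failed estimate. Each table stops at 65535 transcripts, sorted by ID up to number 437205, so later transcripts were not analysed here. Of the coding GENCODE 29 transcripts of the 10 genes, 22 of 57 were listed.

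Values were summed per symbol and compared as log2((MTAC-P + 1)/(PC9 + 1)) at a mean of at least 1 FPKM, with Python 3.11.15, pandas 2.3.3, numpy 2.4.6 and matplotlib 3.10.9. There was no test. The members, lists and alternatives were chosen with earlier results of these data known. All 10 members are named. Of each other list the rule names up to 4 genes at 2-fold or, with none, the 2 most abundant, and of neighbours those that overlap a member or reach 2-fold. List genes and neighbours beyond it, such as AHR, CYP3A4 and RAC3, were named after their values were seen. Of the genes that overlap a member but have no listed symbol, only AP000688.1 is named. Coordinates and models are from GENCODE 29 (GRCh38).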

Additional observations from a re-analysis of the deposited data

How the results depend on the processing

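The 4 members at 2-fold became 2 at 4-fold, AOX1 and DCXR. The count over all genes, 888, was 1344 with a pseudocount of 0.1, 284 with 5, 431 at a mean of at least 5, 174 at 4-fold and 2307 at 1.5-fold. The count over other genes of drug metabolism, 11, was 2 with a pseudocount of 5, 6 at a mean of at least 5, 0 at 4-fold and 25 at 1.5-fold. The mean of at least 5 compares fewer genes, the fold settings move the threshold, and a larger pseudocount draws every ratio towards 0 by construction. Of 99 values of single members under alternatives, 94 kept their side of 2-fold. POR dropped below it in 3 (-0.96 with a pseudocount of 5, -0.11 without incomplete models, -0.86 weighted by length), and EPHX2 (-1.51) and CYP1A1 (-1.06), which were not compared, passed it with a pseudocount of 0.1. AOX1 ranged from 1.61 to 5.22 and DCXR from -2.99 to -1.47, and neither changed sign. Leaving out incomplete models and weighting by length were chosen after seeing the data, and CYP1B1 gave no value by length because its listed transcripts have none. No paired analysis was possible because there is a single library per line, and no replicate could be left out. Depth is unknown, so the low values of EPHX2, CYP1A1 and CYP24A1 have no precision.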
